A study of Arabidopsis thaliana with 4 samples.

Results

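The genes described here encode proteins of the small (40S) subunit of the cytosolic ribosome of Arabidopsis thaliana. The list holds 60 nuclear loci for 26 ribosomal proteins, and a locus was taken up where the annotation of the Affymetrix ATH1 array assigns a probe set to it alone, the brightest probe set standing for the locus. This gave 39 loci, each with 1 probe set, out of 13286 loci named in this way on the array, and 21 listed loci had no such probe set and are not analysed here. Of the 39, 36 loci for 20 proteins were bright enough to be called measured, and the other 3 were dim on all arrays. The locus names come from the annotation and the gene table, while the protein encoded by each locus was assigned from general knowledge of the Arabidopsis ribosomal protein genes. The gene table names the protein of 12 listed loci, and all 12 match that assignment, but none of those is among the measured loci. All 39 loci have their locus name as gene symbol, and every listed locus with another symbol had no probe set assigned to it alone. Why was not tested, and a missing assignment is not read as absence from the array.

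RNA was taken from plants under 2 conditions, and from each condition as 2 fractions, so that there are 4 groups with 1 array each. The groups were non-polysomal RNA (free messenger RNA or messenger RNA on a single ribosome) of plants without stress, polysomal RNA (messenger RNA on more ribosomes) of plants without stress, and the same fractions of plants under dehydration stress. The labels name no tissue, ecotype, plant age, or length of dehydration. Both arrays without stress were hybridized on 1 day and both dehydration arrays on another, and each of these days had its own fluidics station, so dehydration, hybridization day and station cannot be told apart. With 1 array per group no difference was tested.

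The 40S subunit binds messenger RNA, scans for the start codon and pairs codons with transfer RNAs. A subunit carries each of its proteins once, but in Arabidopsis nearly every such protein is encoded by several paralogous genes, so that the subunit draws on a family of transcripts for each position. Ribosomal protein transcripts are among the most abundant in growing plant tissue, and their loading onto ribosomes is known to respond to growth signals such as the TOR kinase and to stress.

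The deposited signals had been scaled to the same trimmed mean of 500 on every array, so a ratio says how a transcript stands against the mean transcript of its arrays, and does not give the fraction of its molecules on polysomes. Median signals over 22810 probe sets lay between 186 and 250 on the 4 arrays. The 36 loci were bright, with median signals of 3150 and 3452 in non-polysomal and polysomal RNA without stress and of 2978 and 2240 under dehydration. The middle locus stood at percentile 96.5, 96.0, 95.9 and 93.4 of the probe sets on these arrays. In bulk RNA, fewer cells with a transcript and less of it per cell cannot be told apart.

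The fractions of unstressed plants were compared first, to ask how 40S transcripts were distributed relative to other transcripts before dehydration. Most 40S loci were slightly richer in polysomal RNA, with 27 of 36 above 0 on the log2 scale of polysomal over non-polysomal signal and a median of 0.20. Among the 11373 measured probe sets 46.8% were above 0, with a median of -0.06. In this comparison 4 loci were at least 2-fold higher in polysomal RNA, against 8.56% of all measured probe sets, and none was at least 2-fold lower, against 11.9%. The 4 were AT5G58420 (1.15), which encodes S4, AT1G48830 (1.15) for S7, AT3G04840 (1.10) for S3a and AT3G60770 (1.03) for S13. The lowest values were those of AT5G27700 for S21 (-0.90), AT1G15930 for S12 (-0.75), AT4G34670 for S3a (-0.52) and AT3G02080 for S19 (-0.26).

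Bright transcripts in general lay above 0 in this comparison. Of the 2275 probe sets in the brightest 10% of the array, which hold 29 of the 36 loci, 63.2% were above 0, 15.6% were at least 2-fold higher and the median was 0.28. Under quantile normalization the 40S median without stress was 0.094 and 17 of 36 loci were below 0, against 9 of 36 with the scaling used here. In that setting 48% of all measured probe sets were below 0, with a median of 0.034, so the 40S share was near theirs. The distance of the 40S median from that of all measured probe sets was 0.06, against 0.26 with the scaling used. The count of loci at least 2-fold higher also moved with the scaling. It was 8 under median scaling, against 18.4% of all measured probe sets, 13 under hybridization control scaling, against 21.8%, and 2 under quantile normalization, against 9.74%.

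Under dehydration most 40S loci stood lower while their order was broadly kept. Across the 36 loci the ratios of the 2 conditions, which share no array but are read by the same probe sets, had a Pearson's r of 0.80 and a Spearman's rho of 0.78. Over the 11373 measured probe sets these were 0.81 and 0.80, so order was kept to a like degree over the whole array. The median polysome ratio was -0.24, with 23 of 36 loci below 0, against 52.1% of all measured probe sets, whose median was -0.04, and 42.5% of the brightest 10%, whose median was 0.15. At least 2-fold lower in polysomal RNA were 7 loci, 19.4% of the 36, where 11.6% of all measured probe sets and 9.27% of the brightest 10% were called. These were AT4G39200 for S25 (-1.56), AT5G27700 for S21 (-1.52), AT1G15930 for S12 (-1.30), AT2G36160 for S14 (-1.16), AT3G02080 for S19 (-1.15), AT4G34670 for S3a (-1.04) and AT3G04920 for S24 (-1.01). A single locus, AT5G39850 for S9, was at least 2-fold higher (1.19), against 9.06% of all measured probe sets. It was followed by AT1G48830 for S7 (0.84), AT3G60770 for S13 (0.60) and AT2G45710 for S27 (0.53). Scaling on array medians moved the median of all probe sets up and left the 40S median under dehydration at 0.015. It multiplies each array by a constant factor, so the distance from the median of all measured probe sets, -0.20, could not change. Quantile normalization can change this distance and gave -0.36. Of the 7 loci at least 2-fold lower 3 passed under median scaling, AT4G39200, AT5G27700 and AT1G15930, against 6.87% of all measured probe sets. Where each of the 20 proteins was counted once, by the median of its loci, none was at least 2-fold lower. The lowest was S25 at -0.72.

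**Figure D1:**
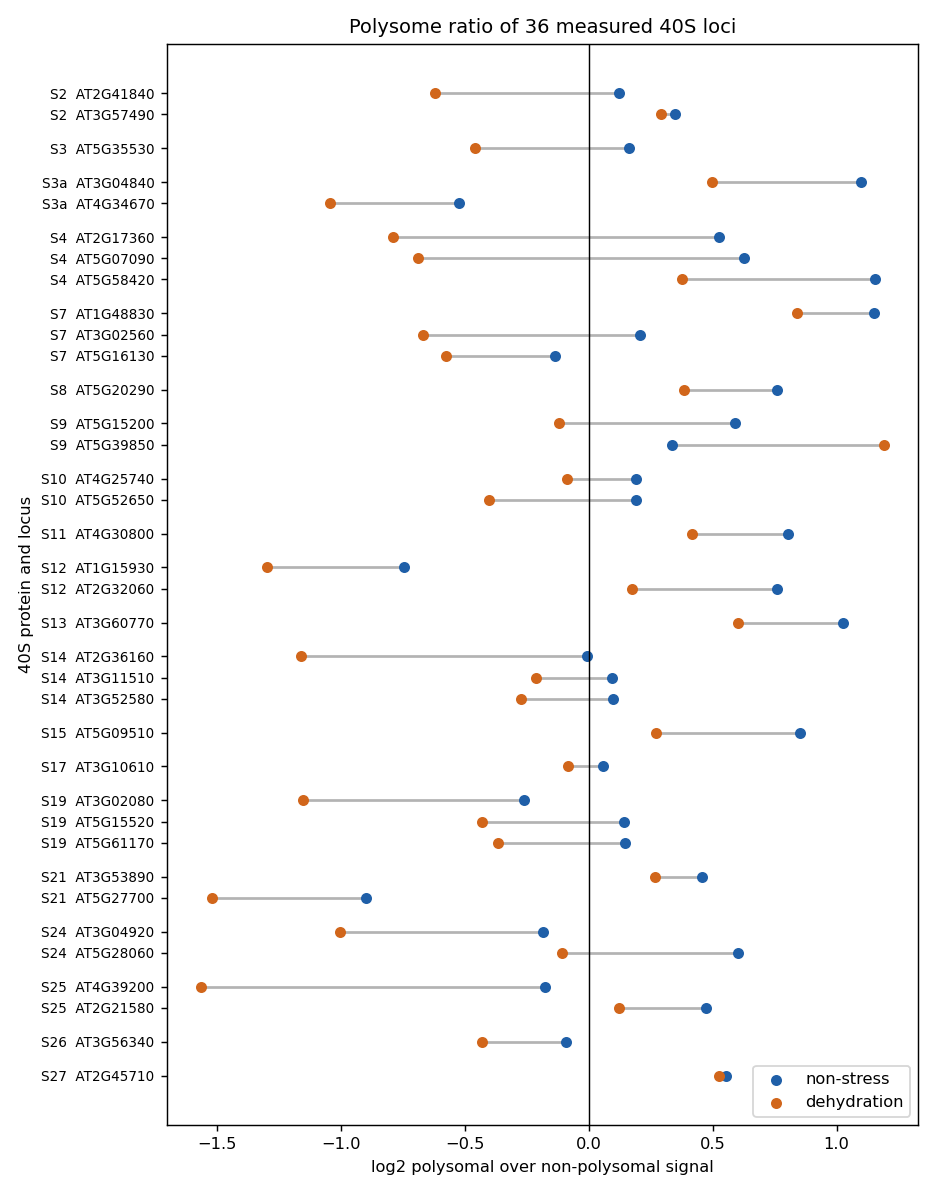
Log2 ratio of polysomal over non-polysomal signal (horizontal axis) for each of the 36 measured 40S loci, grouped by protein (vertical axis), without stress (blue) and under dehydration (orange), 1 array per fraction and condition. The orange point lies to the left of the blue point for 35 loci, and to the right for AT5G39850 of S9.

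The change in the ratio between conditions was nearly uniform in direction. The ratio was lower under dehydration for 35 of 36 loci, where 48.9% of all measured probe sets and 61.7% of the brightest 10% were lower. The median change was -0.56, with the middle of the list between -0.72 and -0.35, and it lay -0.57 from the median of all measured probe sets, which was 0.01. At least 2-fold lower were 4 loci, 11.1% of the list, against 1.62% of all measured probe sets and 1.54% of the brightest 10%. They were AT4G39200 for S25 (-1.39), AT2G17360 and AT5G07090, both for S4 (-1.32 each), and AT2G36160 for S14 (-1.16). None was at least 2-fold higher, against 2.8% of all measured probe sets. The ratio of 14 loci was above 0 without stress and below 0 under dehydration (38.9%, against 8.91% of all measured probe sets), 13 stayed above 0 (against 37.9%), 9 stayed below 0 (against 43.1%) and none went from below to above (against 10.1%).

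The smallest decreases were those of AT2G45710 for S27 (-0.03), AT3G57490 for S2 (-0.05), AT3G10610 for S17 (-0.14) and AT3G53890 for S21 (-0.19). Beyond these, AT4G25740 for S10 was at -0.28, AT3G11510 for S14 at -0.31 and AT1G48830 for S7 at -0.31. The only locus with a higher ratio under dehydration was AT5G39850, by 0.86, at percentile 95.5 of all measured probe sets. Under quantile normalization AT3G10610 for S17 was also above 0 (0.023). At the other end, AT4G39200 stood at percentile 0.36. Hybridization control scaling, which moved the median of all measured probe sets by -0.36 relative to the scaling used, gave a 40S median change of -0.92. The distance from all measured probe sets stayed at -0.57, as it must when each array is multiplied by a constant factor. Quantile normalization gave a distance of -0.45. Hybridization control scaling put 11 loci at least 2-fold lower, where 77.8% of all measured probe sets were below 0 and 7.23% at least 2-fold lower.

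**Figure D2:**
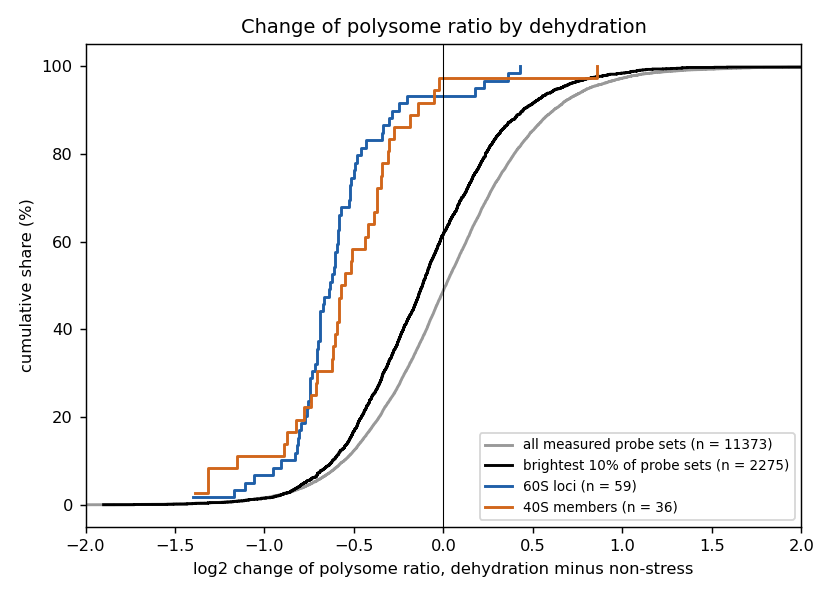
Cumulative share of loci or probe sets (vertical axis, percent) against the log2 change of the polysome ratio, dehydration minus non-stress (horizontal axis), for the 40S loci, the 60S loci, the brightest 10% of the array and all measured probe sets. The 40S curve crosses 50% near its median of -0.56 and the 60S curve near -0.63, both to the left of the curves of all measured probe sets (0.01) and of the brightest 10% (-0.12).

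The change in the ratio joins a dehydration effect in polysomal RNA and another in non-polysomal RNA, which share no array. In polysomal RNA 31 of 36 loci were lower under dehydration, against 50.3% of all measured probe sets and 52.3% of the brightest 10%, with a median of -0.57. In non-polysomal RNA the loci lay on both sides of 0, 16 below and 20 above, with a median of 0.04, where 51.5% of all measured probe sets were below 0. The median in non-polysomal RNA was -0.037 under quantile normalization and -0.040 when each protein was counted once, so no direction is given for it. At least 2-fold lower in polysomal RNA were AT4G39200 for S25 (-1.45), AT3G10610 for S17 (-1.09) and AT3G02560 for S7 (-1.002), 8.33% of the list against 5.58% of all measured probe sets, and none was at least 2-fold higher, against 6.36%. No 40S locus was 2-fold different in non-polysomal RNA, where 4.56% of all measured probe sets were at least 2-fold lower and 4.32% at least 2-fold higher.

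The loci took 3 of the 4 possible combinations. Polysomal signal was lower and non-polysomal signal higher under dehydration at 15 loci, 41.7% against 13.4% of all measured probe sets. Both signals were lower at 16 loci (44.4%, against 36.9%) and both were higher at 5 loci (13.9%, against 35.1%). No locus had a higher polysomal and a lower non-polysomal signal, a combination seen in 14.5% of all measured probe sets. The 5 loci with both signals higher encode S7 (AT1G48830), S8 (AT5G20290), S9 (AT5G39850), S15 (AT5G09510) and S25 (AT2G21580), and for AT1G48830, AT5G20290 and AT5G09510 the polysomal difference was at most 0.02. Across the 36 loci the dehydration effects in the 2 fractions had a Pearson's r of 0.54 and a Spearman's rho of 0.68, against 0.73 and 0.65 over all measured probe sets. These points share their probe sets and hybridization days, and genes are not independent replicates.

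**Figure D3:**
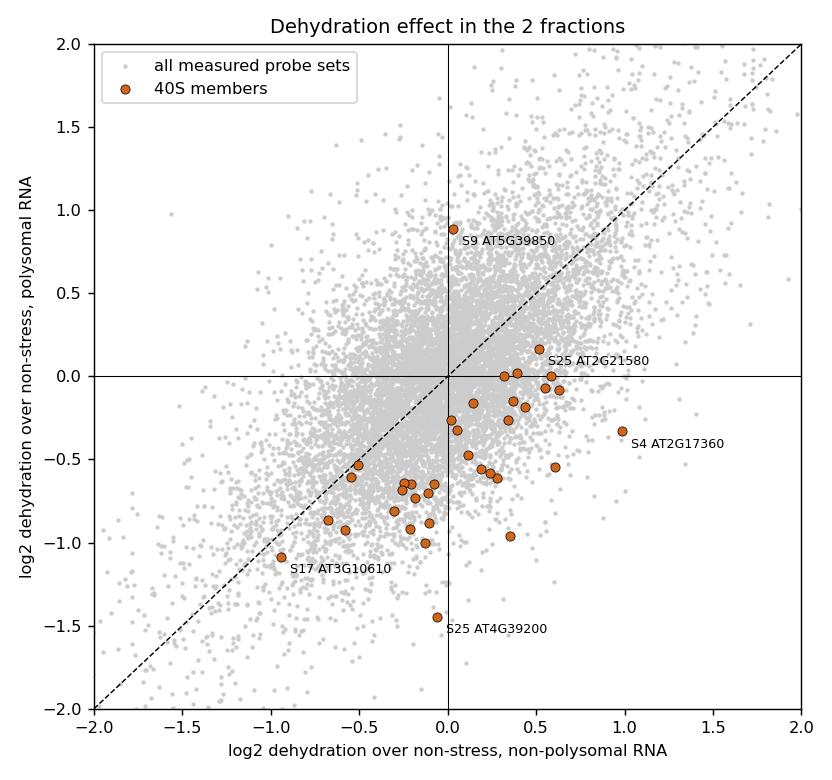
Log2 dehydration over non-stress signal in non-polysomal RNA (horizontal axis) and in polysomal RNA (vertical axis), with all measured probe sets within the axes in grey and the 36 40S loci in orange. The dashed line marks an equal effect in both fractions, and 35 of the 36 loci lie below it, AT5G39850 of S9 being the exception.

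The loci are described next by the place of their protein in the subunit. S2, S3 and S9 line the channel through which messenger RNA enters. For S2, AT2G41840 had signals of 7151 and 7785 in non-polysomal and polysomal RNA without stress and of 8146 and 5302 under dehydration. Its paralogue AT3G57490 was at 503 and 640 without stress and at 344 and 421 under dehydration. The first locus lost its polysomal excess under dehydration, with a ratio of 0.12 and then -0.62, while the second was lower in both fractions and kept its ratio (0.35 and 0.29). For S3, AT5G35530 had 3991 and 4473 without stress and 5842 and 4253 under dehydration, ratios of 0.16 and -0.46.

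The S9 paralogues went opposite ways. AT5G15200 had 5009 in non-polysomal and 7534 in polysomal RNA without stress, and 7745 and 7121 under dehydration. AT5G39850 had 1279.9 and 1617 without stress, and 1309 and 2992 under dehydration. The difference in AT5G39850 lay in the dehydration polysomal array alone, since its other 3 signals were between 1279.9 and 1617. Its change of ratio was above 0 under median scaling (0.74), quantile normalization (0.85) and hybridization control scaling (0.50).

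S3a, S14, S26 and S27 lie on or near the platform, where messenger RNA leaves, and S13 lies in the body close to it. For S3a, AT3G04840 had signals of 4358 and 9334 in non-polysomal and polysomal RNA without stress and of 5530 and 7797 under dehydration, and was thus the richer in polysomal RNA in both conditions (1.10 and 0.50). AT4G34670 had 9539.8 and 6635 without stress and 12316 and 5979 under dehydration, and was the poorer in both (-0.52 and -1.04). Under dehydration both S3a loci stood higher in non-polysomal RNA, by 0.34 and 0.37, and lower in polysomal RNA, at -0.26 and -0.15.

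Of the S14 loci AT2G36160 stood apart under dehydration. It had 3772 and 3757 without stress, equal in both fractions, and 5748 and 2569.5 under dehydration. AT3G11510 went from 4957 and 5286 to 5481 and 4727, and AT3G52580 from 1713 and 1835 to 1773 and 1469. The ratios of the 3 loci lay between -0.01 and 0.10 without stress, whereas under dehydration AT2G36160 was at -1.16 and the others at -0.21 and -0.27. For S26, AT3G56340 had 4542 and 4268 without stress and 3038 and 2252 under dehydration, lower in both fractions. For S27, which carries a zinc finger, AT2G45710 had 995 and 1460.0 without stress and 701 and 1009 under dehydration, again lower in both fractions, with a ratio of 0.55 and 0.53. The S13 locus AT3G60770 had 2804 and 5713 without stress and 2347 and 3562 under dehydration, ratios of 1.03 and 0.60.

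S4, S7, S8, S11, S21 and S24 belong to the body of the subunit. All 3 S4 loci were among the 8 lowest changes of ratio of the list. AT2G17360 had signals of 2161 and 3110.3 in non-polysomal and polysomal RNA without stress and of 4281 and 2474 under dehydration. AT5G07090 had 2281 and 3523 without stress and 2917 and 1809 under dehydration, and AT5G58420 had 1360.3 and 3027 without stress and 1263 and 1639.6 under dehydration. AT2G17360 was the 40S locus with the highest dehydration effect in non-polysomal RNA (0.99), whereas AT5G58420 was slightly lower there (-0.11). In polysomal RNA the dehydration effect was -0.33 for AT2G17360, -0.96 for AT5G07090 and -0.88 for AT5G58420.

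For S7, AT1G48830 had 1393 and 3093 without stress and 1735 and 3103 under dehydration, so that its polysomal signal was level. AT3G02560 had 3743 and 4317 without stress and 3425 and 2156 under dehydration, and AT5G16130 had 5497 and 5008 without stress and 4766 and 3199 under dehydration. Both of the latter were below 0 in ratio under dehydration (-0.67 and -0.58), where AT1G48830 was at 0.84. The S8 locus AT5G20290 had 7369 and 12477 without stress and 9674 and 12639.6 under dehydration, a polysomal signal that differed by 0.02. The S11 locus AT4G30800 was at 335 and 585 without stress and 282 and 376 under dehydration, with ratios of 0.81 and 0.41.

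The S21 paralogues were far apart in both conditions. AT3G53890 had 3012 and 4132 without stress and 1885 and 2270.3 under dehydration, and AT5G27700 had 8504 and 4558 without stress and 11492 and 4010.3 under dehydration. AT3G53890 was lower under dehydration in both fractions, at -0.68 and -0.86 on the log2 scale in non-polysomal and polysomal RNA, whereas AT5G27700 was higher in non-polysomal RNA (0.43) and at -0.18 in polysomal RNA. For S24, AT3G04920 went from 3287 and 2894 to 3882 and 1933, and AT5G28060 from 966 and 1465 to 834 and 774. Their changes of ratio were alike, -0.82 and -0.71.

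S10, S12, S15, S17, S19 and S25 belong to the head of the subunit, S10 and S12 to its beak. For S25, which lies near the exit site of transfer RNA, AT4G39200 had signals of 3824 and 3381 in non-polysomal and polysomal RNA without stress and of 3666 and 1240.2 under dehydration. The polysomal signal under dehydration was thus the low value among 4. AT2G21580 had 1432 and 1985 without stress and 2047 and 2229 under dehydration, higher in both fractions.

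For S12, AT1G15930 went from 7588 and 4520.1 to 6685 and 2721, and AT2G32060 from 1766 and 2992 to 1910.3 and 2158. The first was poor in polysomal RNA in both conditions (-0.75 and -1.30) and the second rich in both (0.76 and 0.18), with nearly the same change (-0.55 and -0.58). For S10, AT4G25740 went from 2061 and 2353 to 2084 and 1962, and AT5G52650 from 4306 and 4912 to 3993 and 3019. The ratios of the 2 S10 loci were 0.19 each without stress and -0.09 and -0.40 under dehydration.

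For S19, AT3G02080 went from 3989 and 3332 to 4844 and 2180.4, AT5G15520 from 745 and 822 to 706 and 525, and AT5G61170 from 3430.1 and 3796 to 2784 and 2163. All 3 were lower in polysomal RNA under dehydration, between -0.81 and -0.61, and AT3G02080 alone was higher in non-polysomal RNA (0.28). The S17 locus AT3G10610 had 1636 and 1704 without stress and 852 and 803 under dehydration, and was the 40S locus with the lowest dehydration effect in non-polysomal RNA (-0.94). The S15 locus AT5G09510 had 704 and 1272 without stress and 1058 and 1277 under dehydration, so that only its non-polysomal signal differed (0.59). S15 reaches into the decoding site.

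The 3 dim loci give no usable ratio. AT5G09500, the neighbour of AT5G09510 on the chromosome and also for S15, had signals between 15.3 and 70.7, and AT2G39590 for S15a between 4.7 and 70.9, so 3 of 4 signals of each were under the limit of 69.9 placed on signals. AT5G59240 for S8 had signals between 83.2 and 167, too dim to be called measured.

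Set against loci of different proteins, paralogues of the same protein were less far apart in ratio by median difference without stress. By that measure they were further apart under dehydration and in the change of ratio. Within the list there were 20 pairs of measured paralogues, from 12 proteins. Measured 40S loci outside the list, such as AT5G47930 for S27 and AT4G34555 for S25, were not paired. Without stress the pairs had a median absolute difference in log2 polysome ratio of 0.40, against 0.48 over the 610 pairs for different proteins. Under dehydration these were 0.93 and 0.68, and for the change of ratio 0.41 and 0.31. At least 1 apart on the log2 scale were 4 of the 20 pairs without stress and 9 of the 20 under dehydration, or 20% and 45%, against 15.4% and 29.7% of the pairs for different proteins. Without stress this share went the other way from the medians, and for the change the shares were 10% and 9.51%. Under quantile normalization the paralogue median without stress was 0.65, and that for different proteins was not recomputed. Between different probe sets of the same locus, available for 46 loci of the array but no 40S locus, the median absolute difference was 0.35 without stress, 0.38 under dehydration and 0.39 for the change. For the change of ratio the value for 40S paralogues, 0.41, was thus close to that for probe sets of 1 gene, 0.39. Pairs share loci and arrays, so they are not independent.

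The largest gaps in ratio without stress kept their order under dehydration, and the 2 conditions share no array. The S3a pair was 1.62 apart without stress and 1.54 under dehydration, the S12 pair 1.51 and 1.47, and the S21 pair 1.36 and 1.79. AT1G48830 of S7 stood 1.28 above AT5G16130 without stress and 1.41 above it under dehydration. All 9 pairs at least 0.5 apart without stress had the same order under dehydration, and of all 20 pairs 17 did. The exceptions were the S9 pair, 1.31 apart under dehydration in the reverse order, and a pair each of S7 and S14. Kept order was not counted for the 610 pairs of loci for different proteins, so these counts are not read as a property of paralogues. Each locus is read by the same probe set in both conditions. A constant factor of a probe set cancels within a ratio. A property of a probe set that acts unequally on the 2 fractions could also give a constant order, and its part was not tested.

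**Figure D4:**
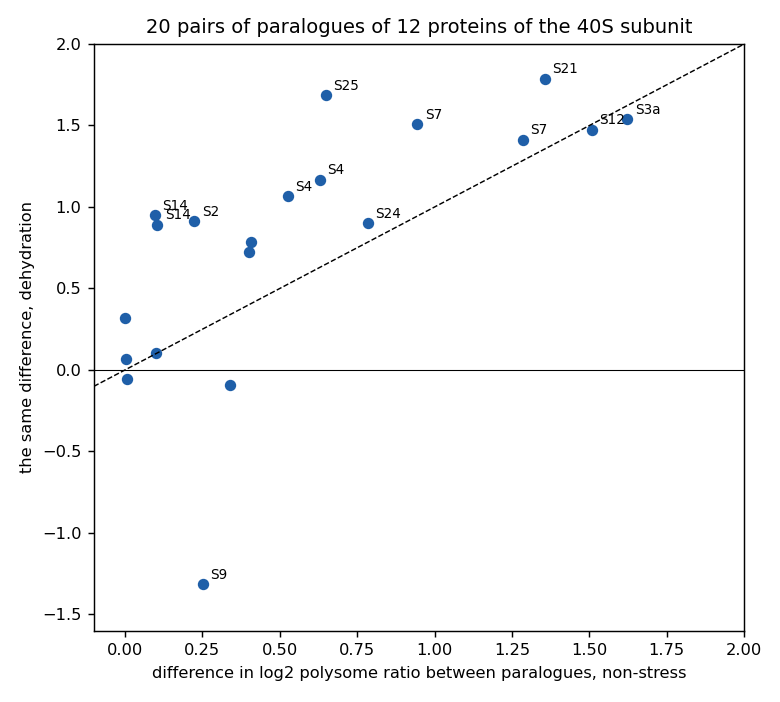
Difference in log2 polysome ratio between the members of each of 20 paralogue pairs without stress (horizontal axis, each pair turned so that it is above 0) and under dehydration (vertical axis), 1 point per pair, with larger gaps labelled by protein. The dashed line marks equal differences, 17 points lie above the horizontal line at 0, and the S9 pair lies far below it at -1.31.

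Of the 20 pairs 17 were further apart under dehydration than without stress. Loci of different proteins also stood further apart, with a median difference of 0.48 without stress and 0.68 under dehydration. Their pairs were not counted in this way. Within the list the proteins with the widest range were S9 (1.57 between the changes of ratio of its loci), S25 (1.04), S14 (0.85), S2 (0.69), S7 (0.56) and S4 (0.54). The narrowest were those of S12 (0.04), S3a (0.08) and S24 (0.11), whose loci differed in ratio yet shifted by nearly the same amount. In 11 of the 12 proteins with several measured loci in the list, each of these loci had a lower ratio under dehydration. The remaining protein was S9. Near-identical paralogues can share probe sequence, and although all 39 probe sets carry the plain name suffix that marks no known sharing, values of single paralogues are uncertain to that extent.

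**Figure D5:**
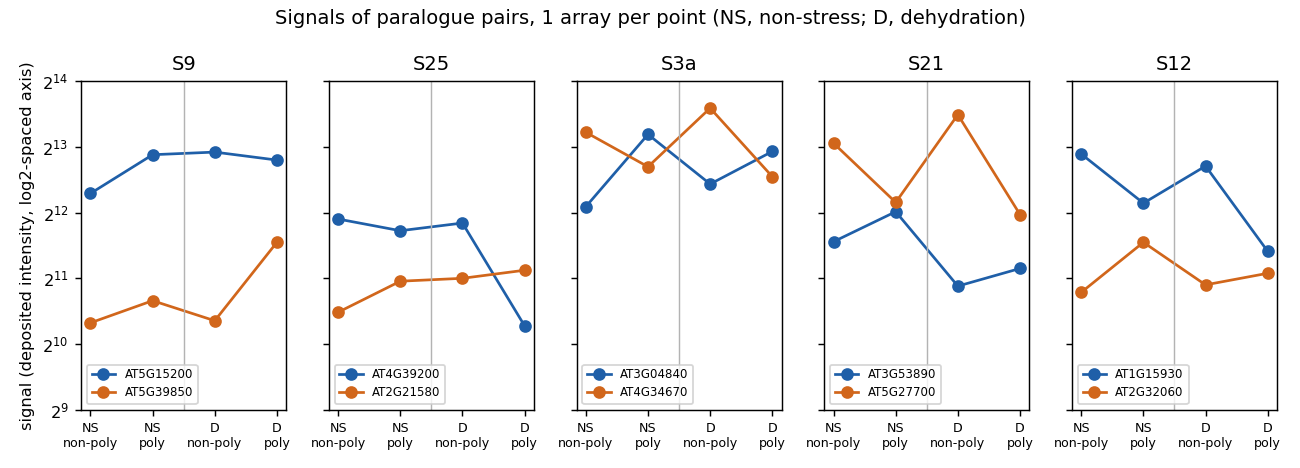
Deposited signal (vertical axis, log2-spaced) of the listed measured paralogues of S9, S25, S3a, S21 and S12 on the 4 arrays (horizontal axis: non-polysomal and polysomal RNA without stress, then under dehydration), 1 array per point. The S9 locus AT5G39850 is high and the S25 locus AT4G39200 low on the dehydration polysomal array, while the S3a, S21 and S12 pairs each hold a locus with lower polysomal than non-polysomal signal in both conditions. Heights of different loci come from different probe sets and are not comparable.

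The loci were also divided by the part of the subunit that holds their protein. The 12 loci of head proteins had a median change of ratio of -0.58 and all 12 were below 0, and the 24 loci of body or platform proteins had a median of -0.48 with 23 below 0. Without stress the medians were 0.16 for the head and 0.40 for the body or platform, and under dehydration -0.38 and -0.17. The 11 loci for proteins with a bacterial counterpart had a median change of -0.42 and 10 below 0, and the 25 loci for the other proteins a median of -0.57 and 25 below 0. Of all measured probe sets 48.9% were below 0 in the change of ratio. With no replicate arrays these differences between lists were not tested.

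Brightness moved with the ratios to some degree. Over the 36 loci the mean log2 signal had a Pearson's r of -0.31 with the ratio without stress, -0.39 with the ratio under dehydration and -0.26 with the change, and over all measured probe sets these were 0.20, 0.12 and -0.13. The mean signal is made from the same arrays. The 18 brighter loci had a median change of -0.60, all of them below 0, and the 18 dimmer loci a median of -0.38 with 17 below 0. The share below 0 was 48.9% over all measured probe sets. The part of brightness in the result was not tested.

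Other genes of translation came from a list by locus. Of 111 listed loci for proteins of the large (60S) subunit 59 were measured, and their median change of ratio was -0.63. Below 0 were 55, against 48.9% of all measured probe sets, and at least 2-fold lower were 4, against 1.62%. The polysomal dehydration effect of the 59 loci had a median of -0.57, equal to that of the 40S loci to 2 decimals, and their non-polysomal effect a median of 0.06. The 60S median ratio was 0.00 without stress and -0.67 under dehydration, where the 40S medians were 0.20 and -0.24. Under dehydration 13 of 59 loci were at least 2-fold lower in ratio, against 11.6% of all measured probe sets. Of 37 further 40S loci 4 were measured, with changes of ratio of -0.92 for AT3G47370 (S20), -0.35 for AT5G47930 (S27), -0.01 for AT4G34555 (S25) and 0.07 for AT3G04230 (S16). Only 2 of 22 listed initiation and elongation factor loci were measured, AT1G54270 for the helicase eIF4A (-0.17) and AT4G20980 for the eIF3 subunit d (-0.76).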

How the data were processed

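Signal intensities of 22810 probe sets on 4 ATH1 arrays, 1 per group, were used as deposited by the authors. The array type comes from the headers of the experiment records. How the signals were summarised is not stated there or in the labels. The deposited intensity values have an equal mean on each array after removal of 2% of values at either end. Signals under 69.9 (the median over arrays of percentile 25) were raised to that limit before log2. After removal of 64 control probe sets, those with a mean log2 signal of at least 7.74, the median of the other 22746, were called measured. Log2 differences were formed for 5 comparisons, and 2-fold differences counted, with no test or p-value. The change of ratio shares arrays with the other comparisons. Loci were named through the platform annotation and the TAIR10.1 gene table. Probe sets given to several loci were left out of the 40S list, apart from an alternative, and kept among all measured probe sets.

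The members and lists were chosen with earlier results of these data known. The 4 signals were to be given for the 8 lowest and 8 highest loci of the change of ratio, the 4 lowest and 4 highest of each other comparison, both S6 loci, and all paralogues of the 6 proteins with the widest and the 3 with the narrowest range. This names 31 loci, the S6 loci having no probe set here, and the other 5 measured loci are given as well. Promoter motifs were not analysed here. The alternatives were median, quantile and hybridization control scaling, other lower limits, filters and probe set rules, and each protein counted once. The calculations were tested on simulated arrays. Python 3.11.15, pandas 2.3.3 and numpy 2.4.6 were used.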

Additional observations from a re-analysis of the deposited data

Results flagged for a closer look

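Values with opposite signs in the 2 conditions or in the 2 fractions are given here, and no such difference was tested. The 40S median polysome ratio was above 0 without stress and below 0 under dehydration, with a median change of -0.56. The median dehydration effect was -0.57 in polysomal RNA and 0.04 in non-polysomal RNA. Both kinds of sign depended on the processing. Under median scaling the median ratio under dehydration was 0.015, and under quantile normalization the non-polysomal median was -0.037.

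Both kinds of opposite sign, in the ratio and in the dehydration effect, were found at 8 loci. Their changes of ratio were -0.74 for AT2G41840, -0.62 for AT5G35530, -1.32 for AT2G17360 and for AT5G07090, -0.71 for AT5G15200, -0.28 for AT4G25740, -0.31 for AT3G11510 and -0.37 for AT3G52580. Opposite signs of the ratio alone were found at 6 loci, with changes of -0.87 for AT3G02560, -0.59 for AT5G52650, -0.14 for AT3G10610, -0.57 for AT5G15520, -0.51 for AT5G61170 and -0.71 for AT5G28060. Opposite signs of the dehydration effect alone were found at 7 loci, with changes of -0.60 for AT3G04840, -0.52 for AT4G34670, -0.58 for AT2G32060, -1.16 for AT2G36160, -0.89 for AT3G02080, -0.62 for AT5G27700 and -0.82 for AT3G04920. Over all measured probe sets the ratio went from above to below 0 under dehydration in 8.91% and from below to above in 10.1%. Polysomal signal was lower and non-polysomal higher in 13.4%, and the reverse held in 14.5%. Shares with both kinds of opposite sign, or with a single kind alone, were not computed for all measured probe sets. Some flagged values lay close to 0, such as 0.02 for AT4G25740 in non-polysomal RNA and ratios of 0.06 and -0.09 for AT3G10610.

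A further 4 bright probe sets, which the annotation gives to several loci of the same protein and which are not among the 40S loci described, also carried signal. Their changes of ratio were -0.40 for S17, -0.45 for S23, -0.58 for S3 and -0.54 for S16. All 4 had a lower polysomal signal (from -0.42 to -0.22) and a higher non-polysomal signal (from 0.03 to 0.31) under dehydration. S23 lies in the decoding centre and had no probe set of a single locus.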

How the results depend on the processing

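No paired analysis was possible because each group has 1 array. Of 135 recomputed medians and counts of the 40S loci, 105 stayed near their value (medians within 0.1, counts within 1.5 times). The rules for loci with several probe sets are left out of these numbers, since each 40S locus has 1 probe set and they could change nothing. A lower limit at percentile 10 is still counted in these numbers, although it also could change nothing. No measured 40S locus had a signal under 69.9. Shares in brackets are those of all measured probe sets in the same setting. Median scaling gave a median ratio of 0.57 without stress, with 3 loci below 0 (34.2%). Under dehydration the median was 0.015, turned in direction, with 3 at least 2-fold lower (6.87%). The same scaling gave -0.67 for the change and 0.21 for the non-polysomal effect. Quantile normalization gave 0.094 without stress, with 17 below 0 (48%) and 2 at least 2-fold lower (10%). Its non-polysomal median was -0.037, turned in direction, with 1 at least 2-fold lower (5.06%). Hybridization control scaling gave 0.67 without stress, with 3 below 0 (29.2%), and -0.13 under dehydration. The median change was then -0.92, with 11 at least 2-fold lower (7.23%). For the non-polysomal effect it was 0.34, with 5 below 0 (28.3%). The cause of these differences was not tested beyond the shift each scaling gives all probe sets. Counting each of 20 proteins once, by the median of its loci, leaves fewer units and also draws extreme loci towards their paralogues. It gave 2 below 0 without stress (53.2%), and 14 below 0 (52.1%) and 0 at least 2-fold lower (11.6%) under dehydration. For the change 19 were below 0 (48.9%) and 1 at least 2-fold lower (1.62%), with a median of -0.43. For the polysomal effect 17 were below 0 (50.3%) and 1 at least 2-fold lower (5.58%), and the non-polysomal median was -0.040, turned in direction. With 29 loci in the brightest 10%, chosen after seeing the data, medians were -0.40 under dehydration and 0.14 for the non-polysomal effect. For the latter 10 were below 0, against 42.5% of the brightest 10%. The change of ratio was below 0 at 35 loci under median (58.8%) and hybridization control scaling (77.8%), and at 34 under quantile normalization (51.7%). Adding the 4 probe sets of several loci, also chosen after seeing the data, gave a median change of -0.54 with 39 of 40 below 0 (48.9%). The median gap between paralogues under quantile normalization was 0.65 without stress and 1.10 under dehydration. The number of arrays limits the precision.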
